A study of Homo sapiens with 33 samples.

Results

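A set of 47 protein-coding forkhead genes other than FOXL2 was followed through the gonadal differentiation of a human embryonic stem cell line in which FOXL2 itself could be switched on. The members are genes of the count table that are annotated as protein coding and carry a FOX symbol of subfamilies A to S, without FOXL2 and its neighbour FOXL2NB, 47 of 58735 genes (19951 of them protein coding). This rule reads symbols and annotation and no expression value. RNA sequencing covered 33 libraries in 11 groups of 3 technical replicates. All came from the line H9-DDdCas9VP192-FOXL2 clone 24, a single clone of the embryonic stem cell line H9 with a dCas9 activator that is guided to FOXL2. Cells were driven towards intermediate mesoderm for 4 days and sampled on day 4, and then on days 6, 8, 10, 12 and 14 without induction (CTRL, no doxycycline and no trimethoprim) or with induction (IND, doxycycline and trimethoprim from day 4 on). No group received doxycycline and trimethoprim without FOXL2 activation, so the effects of the agents and of FOXL2 cannot be told apart. The 3 replicates of a group are wells of 1 differentiation, so every p-value below measures the spread between wells and not between independent differentiations.

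The libraries held between 23940837 and 51912815 counts on genes, with a median of 41420455. FOXL2, the targeted gene, lay between 148 and 577 CPM (counts scaled to library size by TMM) in the 15 IND libraries and at no more than 0.388 CPM in every CTRL and day 4 library. Of the markers of the labelled tissue, the 7 coelomic epithelium and mesothelium genes summed to 846 to 1132 CPM on day 14 CTRL and to 606 to 684 CPM on day 14 IND. KRT19 made up much of this sum, with a mean of 423 CPM on day 14 CTRL. On day 4 the sum was already 1059 to 1400 CPM, with KRT19 at a mean of 1159 CPM and UPK3B at 0.245 CPM. The 6 markers of early supporting gonadal cells summed to no more than 58.1 CPM in any library. Replicate 2 of day 10 IND stood apart: it had the lowest depth, its 5 markers of pluripotent cells summed to 1914 CPM against 343 and 409 CPM in the other two libraries of its group, and its 6 mesenchyme markers summed to 18212 CPM against 4538 and 5439 CPM. In the means of day 10 IND, LIN28A held 812 CPM and the other pluripotent markers at most 74.8 CPM, with POU5F1 at 0.503 CPM. COL1A1 held 8667 CPM and the other mesenchyme markers at most 247 CPM. Each sum thus rested mostly on a single gene. Results of day 10 are given with and without this replicate because of its depth and these sums.

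Forkhead proteins share a winged-helix DNA-binding domain, and many of them, though not all, recognise related sites built around the core GTAAACA. Some, such as the FOXA proteins of the endoderm, bind compacted chromatin early and open it, whereas others act at the end of signalling pathways, such as FOXH1 in Nodal and activin signalling and the FOXO proteins under insulin and AKT. FOXL2 is the family member of the granulosa cells of the ovary, and the mesodermal members FOXC1, FOXC2, FOXF1 and FOXF2 act in the tissues from which the gonad and kidney arise.

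FOXB2 had no counts in any of the libraries, and all other members had some. The highest group mean reached at least 1 CPM for 34 members, at least 10 CPM for 25 and at least 100 CPM for 6, namely FOXP4 (357 CPM), FOXK1 (136 CPM), FOXM1 (109 CPM), FOXA1 (107 CPM), FOXO3 (106 CPM) and FOXK2 (105 CPM). A count of 3, taken as the floor of detection, was worth 0.0565 CPM in the library with the largest scaled total and 0.130 CPM in the one with the smallest, which covers counting error only. Most of the members that stayed under 1 CPM were the FOXD4 copies and family members with restricted sites of expression. FOXD4 had 220 counts over 31 libraries, FOXN1 (thymic epithelium) 139 counts over all libraries together, FOXD4L4 92, FOXR1 41, FOXD4L3 29, FOXD4L5 19, FOXD4L6 19, FOXD4L1 18, FOXR2 15 and FOXI1 4 counts. The counts of the FOXD4 copies are uncertain, since 89.8% of the 100-base windows of FOXD4L6, 88.6% of those of FOXD4L3 and 74.4% of those of FOXD4L4 also occur in another gene's transcripts. Of the 15 counts of FOXR2, 14 lay in day 10 IND replicate 2, at 0.605 CPM, and 1 in another library.

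Levels can be set between genes only per length, for which the FPKM of the authors were used (fragments scaled to gene length and library size). On day 4 the highest members were FOXM1, a driver of mitotic gene expression, at 18.5 ± 3.55 FPKM (SD, n = 3), FOXA2 at 16.8 ± 6.37 FPKM, FOXH1 at 15.6 ± 2.75 FPKM, FOXP4 at 12.6 ± 1.23 FPKM and FOXF1 at 11.0 ± 1.19 FPKM. The ranges of all neighbours in this order overlapped, so the order itself was not resolved. On day 14 CTRL FOXP4 led with 48.0 ± 9.58 FPKM (37.0 to 54.0 FPKM), without overlap with FOXM1 at 14.4 ± 0.775 FPKM, followed by FOXF1 at 11.7 ± 2.69 FPKM, FOXO3 at 11.5 ± 1.45 FPKM and FOXO4 at 11.2 ± 0.136 FPKM, whose ranges overlapped. FOXP4 led on day 14 IND too, at 57.4 ± 7.40 FPKM.

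**Figure D1:**
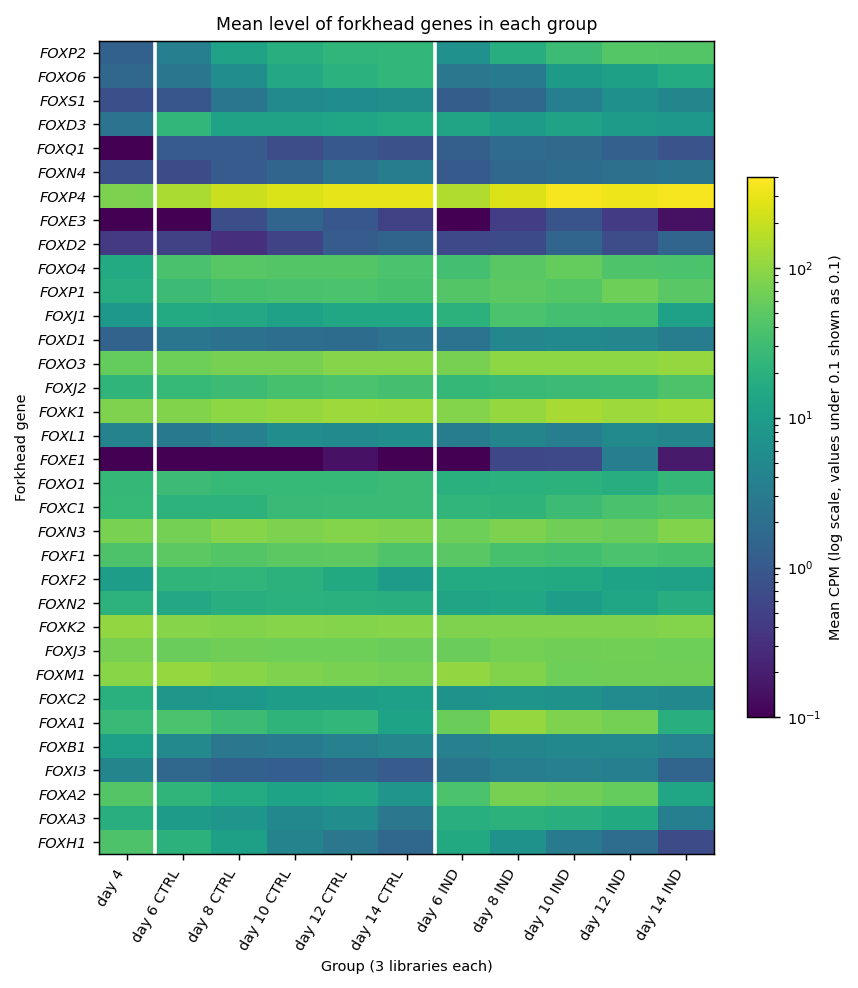
Mean level in CPM (colour, log scale) of the 34 members that reached 1 CPM in at least 1 group, with the 11 groups as columns and members ordered by their change from day 4 to day 14 CTRL. FOXP2 and FOXO6 at one end rose from 1.29 and 1.60 CPM on day 4 to 24.0 and 24.1 CPM on day 14 CTRL, and FOXH1 at the other fell from 39.5 to 1.62 CPM.

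The first comparison asked how the family moved during differentiation without induction. FOXP2, FOXO6, FOXD3, FOXS1 and FOXP4 rose, and the endoderm factors FOXA1, FOXA2 and FOXA3 fell together with FOXH1. Each CTRL day was compared with day 4 (edgeR quasi-likelihood test with Benjamini-Hochberg adjustment over all genes tested, threshold 0.05). Of the members tested, 15 of 32 were called on day 6 (8 higher, 7 lower; 21.6% of all genes tested were called), 20 of 34 on day 8 (13 higher, 7 lower; 37.1% of all genes), 20 of 34 on day 10 (14 higher, 6 lower; 45.1%), 22 of 34 on day 12 (15 higher, 7 lower; 48.1%) and 22 of 34 on day 14 (64.7%, against 47.6% of all genes). The 15 members that were higher on day 14 stood against 24.6% of all genes called higher, and the 7 that were lower against 22.9%. The 5 comparisons share the 3 day 4 libraries. In all, 26 members were called in at least 1 of them and 12 in all 5, namely FOXA2, FOXA3, FOXB1, FOXC2, FOXD3, FOXH1, FOXI3, FOXO4, FOXP1, FOXP2, FOXP4 and FOXQ1. The share of all genes called over the 5 comparisons together was not counted, so these pooled counts cannot be set against it.

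FOXP2, a repressor of the FOXP subfamily known from language circuits, lay at 0.982, 1.77 and 1.13 CPM on day 4 and at 28.2, 26.4 and 17.5 CPM on day 14 CTRL, a log2 fold change of 4.22 ± 0.29 (SE; edgeR adjusted p = 5.5e-06). FOXO6, the FOXO protein found mostly in brain, rose from 1.31, 2.18 and 1.29 CPM to 24.0, 24.2 and 24.2 CPM, by 3.92 ± 0.23 on the log2 scale (edgeR adjusted p = 2.8e-06). Both groups were clearly separate for each gene, and the 3 day 14 libraries of FOXO6 were almost equal. FOXD3, a gene of pluripotent cells and of the early neural crest, peaked on day 6 at 24.4 CPM and was still at 15.8 CPM on day 14 CTRL against 2.34 CPM on day 4 (log2 fold change 2.76 ± 0.38, edgeR adjusted p = 0.0003). FOXS1, known from perivascular cells, rose from 0.754 to 5.94 CPM (2.98 ± 0.36, edgeR adjusted p = 0.00015). FOXP4 rose from 78.4 to 294 CPM (1.91 ± 0.16, edgeR adjusted p = 1.9e-05) and FOXO4 from 15.9 to 38.4 CPM (1.28 ± 0.13, edgeR adjusted p = 4.9e-05). FOXQ1 (3.25 ± 0.77, edgeR adjusted p = 0.0066) and FOXE3, a lens gene (2.87 ± 0.80, edgeR adjusted p = 0.015), were among the 6 largest rises, but their day 4 libraries held only 0, 3 and 4 and 0, 4 and 2 counts, and the highest group mean of FOXE3 was 1.504 CPM.

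FOXH1, the DNA-binding partner of SMAD2 and SMAD3, fell furthest, from 44.9, 41.9 and 31.8 CPM on day 4 to 1.39, 1.72 and 1.75 CPM on day 14 CTRL (log2 fold change -4.61 ± 0.21, edgeR adjusted p = 8.6e-07). FOXA2 fell from 42.5, 61.3 and 28.2 CPM to 8.47, 7.65 and 6.22 CPM (-2.56 ± 0.27, edgeR adjusted p = 6.8e-05). FOXA3 fell from 18.7 to 2.64 CPM (-2.82 ± 0.26), FOXA1 from 26.8 to 12.4 CPM (-1.11 ± 0.33, edgeR adjusted p = 0.019), FOXI3 from 4.54 to 1.07 CPM (-2.06 ± 0.35) and FOXC2 from 19.2 to 10.9 CPM (-0.81 ± 0.18). FOXB1, a gene of the developing brain, went down to its lowest difference on day 8 (-2.03 ± 0.30) and stood at -1.21 ± 0.25 on day 14. FOXF2 moved with time in the other way: it was higher than on day 4 from day 6 (1.16 ± 0.20) to day 12 (0.59 ± 0.19) and was not called on day 14 (-0.09 ± 0.22).

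**Figure D2:**
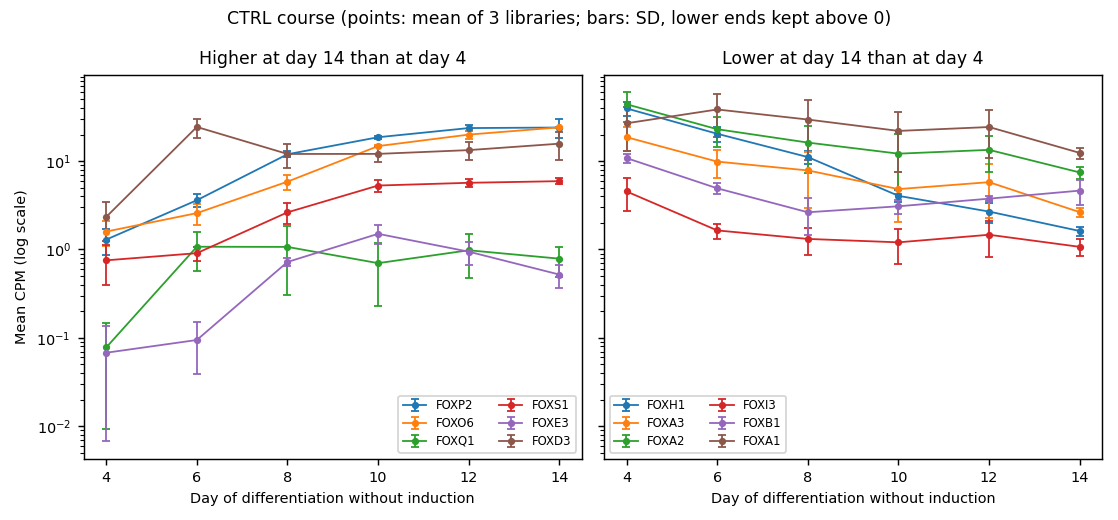
Mean ± SD (n = 3) in CPM on a log axis against day, for day 4 and the CTRL groups, for the 6 members with the largest called rise and the 6 with the largest called fall by day 14. FOXH1 fell on every step to 1.62 CPM, while FOXD3 reached 24.4 CPM on day 6 and stayed above its day 4 level of 2.34 CPM.

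The central comparison was IND against CTRL on the same day, which asks what changed in the family when FOXL2 was activated. FOXP1 and FOXP2 were higher in IND on 4 of the 5 days, FOXO6 was lower on 3 days, and FOXC2, FOXF2, FOXO1 and FOXH1 were lower on 2 days each. A further 7 members were called on a single day with all libraries kept. These were FOXP4 and FOXO3 higher and FOXN2 lower on day 8, FOXA2, FOXD1 and FOXJ1 higher on day 12, and FOXD3 lower on day 14. No member was called higher on one day and lower on another.

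In numbers, 4 of 33 members tested were called on day 6 (12.1%, against 3.66% of all genes), with 2 higher (1.29% of all genes) and 2 lower (2.37% of all genes). On day 8 it was 8 of 34 (23.5%, against 14.2% of all genes), with 4 higher (7.49%) and 4 lower (6.67%). On day 10 edgeR called 0 of 36 (against 2.03% of all genes, 0.856% higher and 1.18% lower), while 15 members had an unadjusted p under 0.05 and DESeq2 called 8. On day 12 it was 8 of 35 (22.9%, against 5.42% of all genes), with 5 higher (2.38%) and 3 lower (3.04%). On day 14 it was 6 of 34 (17.6%, against 8.43% of all genes), with 2 higher (3.21%) and 4 lower (5.22%). The members' share was thus above that of all genes on days 6, 8, 12 and 14 and not on day 10. Their libraries did not overlap between IND and CTRL for 9 members on day 6 (27.3%, against 19.1% of all genes), 17 on day 8 (50% against 33.1%), 18 on day 10 (50% against 30.9%), 20 on day 12 (57.1% against 30.3%) and 10 on day 14 (29.4% against 26.7%). The median log2 fold change over the members tested was 0.08, 0.11, 0.10, 0.02 and 0.03 on the 5 days. These medians are taken over members that differed in both directions.

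Of the 26 calls, 12 were lost in 1 fit over all 33 libraries, 19 with limma on log2(FPKM + 0.1), 21 with limma on log2(FPKM + 1) and 26 with limma without a filter on low values, and none with DESeq2. The count on day 10 rests on day 10 IND replicate 2: without that library 13 of 36 members were called (6 higher, 7 lower), with 18.2% of all genes. The count on day 8 moved to 15 of 35 without CTRL replicate 2, to 13 of 35 without IND replicate 3 and to 1 of 35 without CTRL replicate 3 (13.6%, 23.6% and 6.52% of all genes). The count on day 6 fell to 1 without CTRL replicate 1, CTRL replicate 3 or IND replicate 2 and to 2 without IND replicate 3. The count on day 12 fell to 1, 2 and 1 without CTRL replicates 1, 2 and 3 and to 3 without IND replicate 2. The count on day 14 was 3 without IND replicate 1 and also 3 without IND replicate 3. For these fits of days 6, 12 and 14 the share of all genes is not given, so the members' counts cannot be set against it.

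**Figure D3:**
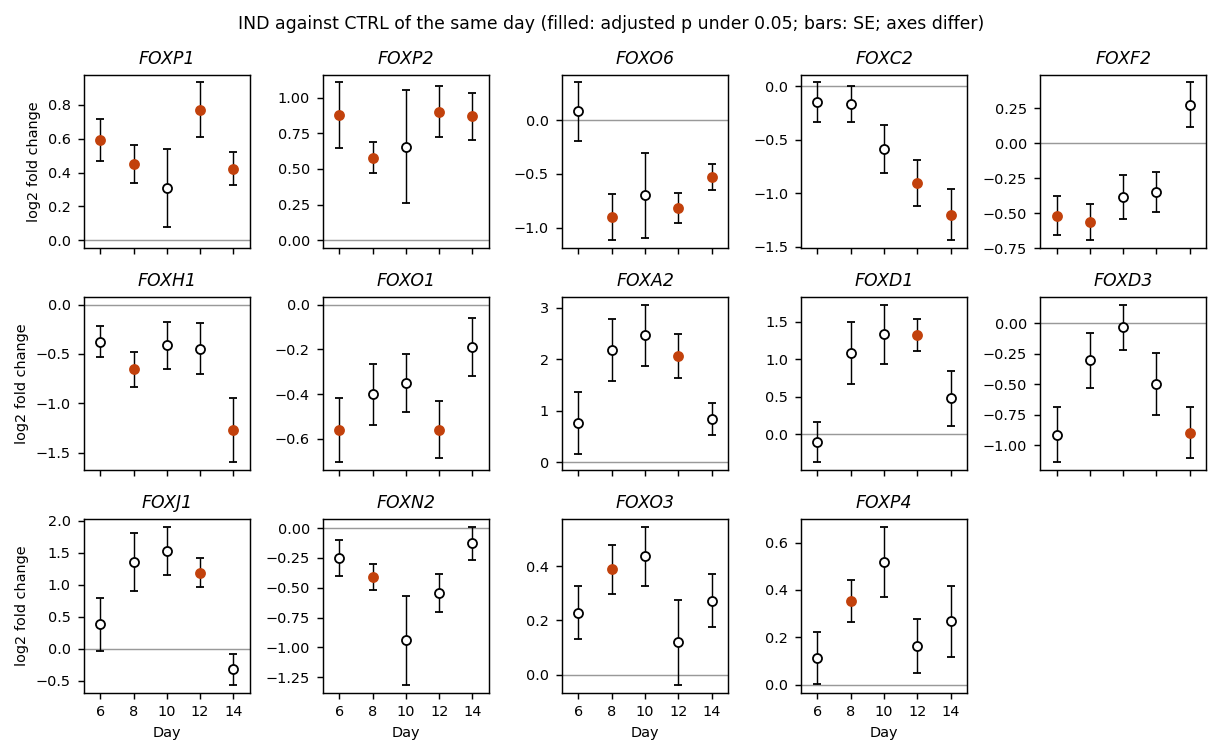
Log2 fold change of IND against CTRL (± SE) on each of the 5 days for the 14 members called on at least 1 day, with filled points for edgeR adjusted p under 0.05. The highest called value is that of FOXA2 on day 12 at 2.06, and the other called values lie between -1.28 and 1.32.

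The FOXP proteins carry a zinc finger and a leucine zipper, pair with each other and mostly repress transcription. FOXP1, FOXP2 and FOXP4 were each called higher in IND on at least 1 day. FOXP3, the factor of regulatory T cells, was never called. FOXP1 (chromosome 3, 70952817 to 71583993, minus strand) lay on day 6 at 25.1, 31.9 and 30.6 CPM in CTRL and 49.1, 43.4 and 38.1 CPM in IND (0.59 ± 0.12, edgeR adjusted p = 0.0107). On day 8 it lay at 40.3, 36.8 and 31.8 CPM against 49.6, 42.6 and 55.6 CPM (0.45 ± 0.11, edgeR adjusted p = 0.0213). On both days every IND library was above every CTRL library. On day 12 the CTRL libraries held 33.7, 38.5 and 40.7 CPM and the IND libraries 79.1, 56.9 and 56.7 CPM (0.77 ± 0.16, edgeR adjusted p = 0.0278). On day 14 they held 39.8, 33.3 and 36.0 CPM against 50.05, 45.9 and 49.9 CPM (0.42 ± 0.10, edgeR adjusted p = 0.0141), again without overlap. Day 10 was the exception, with 34.4, 38.3 and 37.9 CPM in CTRL and 51.1, 30.1 and 55.5 CPM in IND (0.31 ± 0.23, edgeR adjusted p = 0.542). There IND replicate 2 was below all CTRL libraries and the other two were above them. Without it the difference was 0.53 ± 0.08 (edgeR adjusted p = 0.000372). The call on day 6 was lost without IND replicate 2 (adjusted p = 0.0601) and that on day 8 without CTRL replicate 3 (0.127) or IND replicate 1 (0.0667). The call on day 12 was lost without CTRL replicate 1, 2 or 3 (0.130, 0.102 and 0.0880), and that on day 14 without IND replicate 1 or 3 (0.0681 and 0.0626).

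FOXP2 (chromosome 7, 114086327 to 114693772, plus strand) rose during differentiation and was higher still in IND. On day 6 it lay at 2.93, 3.88 and 4.01 CPM in CTRL and 8.17, 4.60 and 6.91 CPM in IND (0.88 ± 0.23, edgeR adjusted p = 0.0444). On day 8 it lay at 12.8, 12.1 and 11.0 CPM against 17.8, 16.6 and 18.8 CPM (0.58 ± 0.11, edgeR adjusted p = 0.00542). The groups did not overlap on either day, and the separation was wider relative to the spread on day 8. On day 12 the CTRL libraries held 25.8, 23.0 and 22.2 CPM and the IND libraries 34.2, 43.1 and 55.5 CPM (0.90 ± 0.18, edgeR adjusted p = 0.0237). On day 14 they held 28.2, 26.4 and 17.5 CPM against 49.0, 44.1 and 38.5 CPM (0.87 ± 0.17, edgeR adjusted p = 0.0100). Again no library of one group reached into the other. On day 10 the CTRL libraries held 19.5, 18.2 and 18.3 CPM and the IND libraries 34.7, 12.4 and 40.7 CPM (0.66 ± 0.40, edgeR adjusted p = 0.473). Without IND replicate 2, the low one, the difference was 1.01 ± 0.09 (edgeR adjusted p = 5.7e-06). The calls on days 8 and 14 held with any single library left out, but not in 1 fit over all 33 libraries (edgeR adjusted p = 0.258 and 0.0592) or with limma on log2(FPKM + 1) (0.0773 and 0.0660). The call on day 6 was lost without CTRL replicate 1, 2 or 3 (adjusted p = 0.205, 0.0577 and 0.0841) or IND replicate 1 or 3 (0.134 and 0.107), and that on day 12 without CTRL replicate 1, 2 or 3 (0.0708, 0.0993 and 0.112) or IND replicate 2 or 3 (0.0590 and 0.0525).

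FOXP4, a FOXP member with the highest CPM of the family in every group from day 6 on, was called only on day 8, with 182, 233 and 199.8 CPM in CTRL and 245, 265 and 269 CPM in IND (0.35 ± 0.09, edgeR adjusted p = 0.0226). The IND libraries lay above the CTRL libraries, with the highest CTRL value close to the lowest IND value. The call was lost without CTRL replicate 1 or 3 (0.127 and 0.125) or IND replicate 2 (0.106). Without day 10 IND replicate 2, the difference of FOXP4 on day 10 was 0.37 ± 0.07 (edgeR adjusted p = 0.00331).

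**Figure D4:**
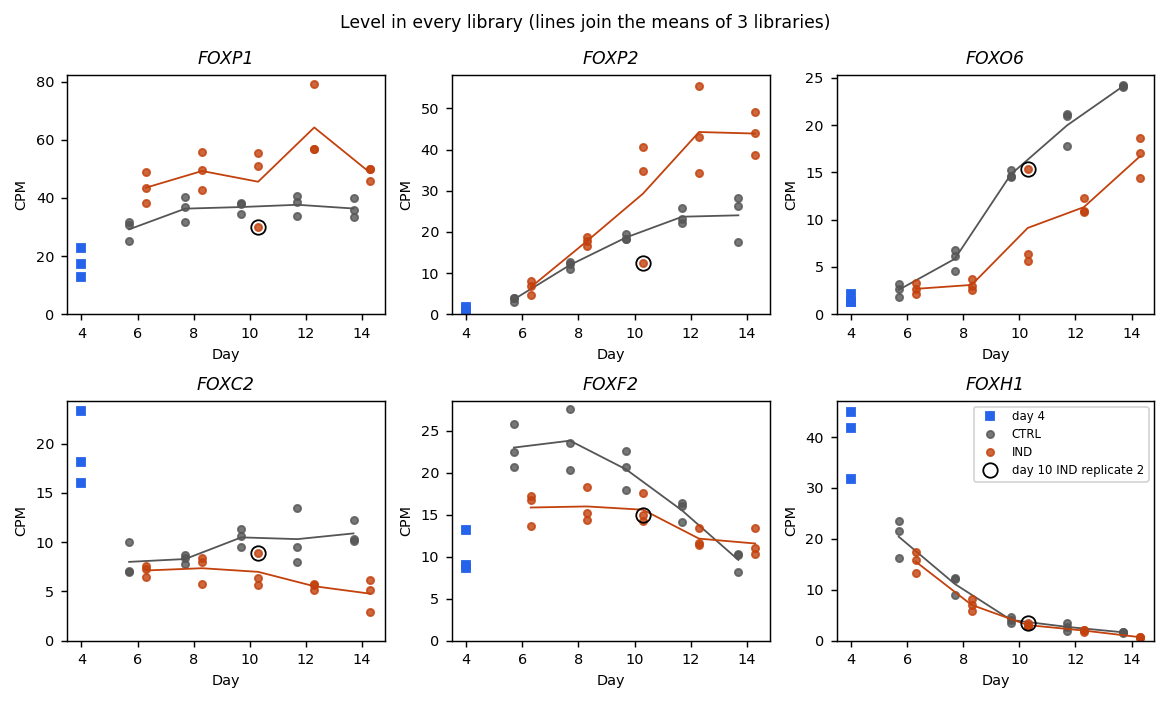
Level in CPM of FOXP1, FOXP2, FOXO6, FOXC2, FOXF2 and FOXH1 in each of the 33 libraries by day, with CTRL and IND in separate colours and day 10 IND replicate 2 ringed. For FOXP1, FOXP2 and FOXO6 the ringed library lies apart from the other two IND libraries of its day, at 30.1, 12.4 and 15.4 CPM.

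Since FOXL2 belongs to the same family of DNA-binding proteins, the promoters of the members were searched for the forkhead core GTAAACA and for AAACA, which lies within it, on both strands of the window from 250 bases before to 50 bases after each start (RefSeq, GRCh38.p14). Promoters were given for 37 of the 47 members, 48 promoters in all. GTAAACA was found in 2 of them (4.17%; FOXO4 and 1 of the 6 starts of FOXP1), against 3.42% of all 35116 promoters. AAACA was found in 21 (43.8%), against 44.4% of all promoters. The members' promoters held a median of 66.8% G and C, against 58.7% over all promoters, and the shares with a match were close to those of all promoters. The following stretches are shown for the members that moved on most days and had a promoter: the surroundings of the FOXP1 match (chr3:71245254-71245280, minus strand, 203 to 177 bases before the start and inside an exon of other FOXP1 transcripts; capitals mark the motif, which reads GTAAACA on the opposite strand), and the 100 bases before the starts of FOXP2 (chr7:114426402-114426501, plus strand, its downstream RefSeq start, in an intron save 2 exonic bases, 37% G and C) and FOXO6 (chr1:41361334-41361433, plus strand, outside annotated genes, 82% G and C), which hold neither motif and so no capitals.
FOXP1: actatgttatTGTTTACtttaccatac
FOXP2: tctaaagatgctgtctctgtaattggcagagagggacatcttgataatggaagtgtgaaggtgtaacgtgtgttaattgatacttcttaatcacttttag
FOXO6: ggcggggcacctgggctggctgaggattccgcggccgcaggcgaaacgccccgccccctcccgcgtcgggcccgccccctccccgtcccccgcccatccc

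The FOXO proteins are held out of the nucleus when insulin and AKT signalling is active. In IND, FOXO6 and FOXO1 were called lower and FOXO3 higher, and FOXO4 was never called. FOXO6 (chromosome 1, 41361922 to 41383590, plus strand) lay on day 8 at 4.59, 6.14 and 6.85 CPM in CTRL and 2.57, 3.75 and 2.99 CPM in IND (-0.90 ± 0.21, edgeR adjusted p = 0.0163). On day 12 it lay at 21.2, 17.7 and 21.0 CPM against 10.8, 12.3 and 11.0 CPM (-0.82 ± 0.14, edgeR adjusted p = 0.0127). On day 14 it lay at 24.0, 24.2 and 24.2 CPM against 18.7, 14.4 and 17.1 CPM (-0.53 ± 0.12, edgeR adjusted p = 0.0142). On all 3 days the IND libraries were all below the CTRL libraries, while the level rose with time in both conditions. On day 10, CTRL stood at 15.3, 14.6 and 14.5 CPM and IND at 6.39, 15.4 and 5.62 CPM (-0.70 ± 0.39, edgeR adjusted p = 0.449). Without IND replicate 2, the only IND library above CTRL, the difference was -1.31 ± 0.12 (edgeR adjusted p = 7.8e-06). On day 6 no difference was called (0.08, edgeR adjusted p = 0.941). The call on day 8 was lost without CTRL replicate 3 (adjusted p = 0.0866) or IND replicate 1 (0.0535), that on day 12 without CTRL replicate 1 or 3 (0.0612 and 0.0765) and that on day 14 without CTRL replicate 1 (0.0553) or IND replicate 2 or 3 (0.0719 and 0.0591).

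FOXO1, which acts in granulosa cells and in metabolism, was at 31.5, 24.4 and 31.5 CPM in CTRL and 21.6, 21.2 and 15.7 CPM in IND on day 6 (-0.56 ± 0.14, edgeR adjusted p = 0.0404). On day 12 it was at 28.1, 24.6 and 25.6 CPM against 16.2, 17.9 and 19.0 CPM (-0.56 ± 0.13, edgeR adjusted p = 0.0397). The groups did not overlap on either day. The day 6 call was lost without CTRL replicate 1 or 3 (adjusted p = 0.185 and 0.155) or IND replicate 2 or 3 (0.0904 and 0.172). The day 12 call was lost with the replicate block (0.0649) and without any single library except IND replicate 1, namely CTRL replicates 1, 2 and 3 (0.173, 0.115 and 0.151) and IND replicates 2 and 3 (0.101 and 0.0604). FOXO3, a regulator of stress resistance and of ovarian follicle reserve, moved in the opposite direction on day 8, with 78.7, 70.6 and 73.2 CPM in CTRL and 103, 101 and 84.3 CPM in IND (0.39 ± 0.09, edgeR adjusted p = 0.0152). All 3 IND libraries were higher than all CTRL libraries. This call was lost without CTRL replicate 3 (0.0803) or IND replicate 1 or 2 (0.0596 and 0.0797). On day 10, with IND replicate 2 left out, FOXO1 was called lower (-0.29 ± 0.08, edgeR adjusted p = 0.0321). FOXO3 was called higher in the same fit (0.42 ± 0.08, edgeR adjusted p = 0.00170). Of the 100-base windows of FOXO3, 17.5% also occur in another gene's transcripts.

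The members FOXC1, FOXC2, FOXF1, FOXF2, FOXL1 and FOXQ1 lie in a pair of clusters. FOXQ1, FOXF2 and FOXC1 lie within 301.458 kb of chromosome 6 (1312440 to 1613897), and FOXF1, FOXC2 and FOXL1 within 71.634 kb of chromosome 16 (86510527 to 86582160). In each cluster 1 gene was called lower in IND and the other 2 were called on no day with all libraries kept. Without day 10 IND replicate 2, FOXF1 was called lower on day 10 (-0.66 ± 0.09, edgeR adjusted p = 0.000167). Without day 8 CTRL replicate 2, FOXQ1 was called higher on day 8 (1.52 ± 0.41, edgeR adjusted p = 0.0337). FOXC2, known from mesenchyme and lymphatic vessels, lay on day 12 at 9.50, 7.97 and 13.4 CPM in CTRL and 5.18, 5.64 and 5.73 CPM in IND (-0.90 ± 0.22, edgeR adjusted p = 0.0481). On day 14 it lay at 12.3, 10.3 and 10.1 CPM against 5.18, 6.16 and 2.94 CPM (-1.20 ± 0.24, edgeR adjusted p = 0.00829). The IND libraries were below all CTRL libraries on both days, and the gap was larger on day 14. The day 14 call held with any single library left out, whereas that of day 12 was lost without CTRL replicate 1, 2 or 3 (adjusted p = 0.111, 0.0576 and 0.190) or IND replicate 2 or 3 (0.112 and 0.0904). On day 10 the difference was -0.59 (edgeR adjusted p = 0.290), and without day 10 IND replicate 2 it was -0.80 ± 0.14 (edgeR adjusted p = 0.00119). The neighbouring long noncoding RNA FENDRR was not called in IND against CTRL (-0.48 on day 14, edgeR adjusted p = 0.579).

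FOXF2, a gene of mesenchyme under epithelia, was called on days 6 and 8. On day 6 it lay at 22.5, 25.8 and 20.7 CPM in CTRL and 13.6, 17.2 and 16.7 CPM in IND (-0.52 ± 0.14, edgeR adjusted p = 0.0462). On day 8 it lay at 20.3, 27.6 and 23.5 CPM against 14.4, 15.2 and 18.3 CPM (-0.56 ± 0.13, edgeR adjusted p = 0.0154). The groups did not overlap on these days. The later values were -0.38, -0.35 and 0.28 on days 10, 12 and 14 (edgeR adjusted p = 0.330, 0.219 and 0.349). The day 6 call was lost whichever single library was left out, with an adjusted p between 0.0560 without CTRL replicate 3 and 0.162 without CTRL replicate 2, and the day 8 call was lost without CTRL replicate 2 or 3 (0.0613 and 0.0606) or IND replicate 1 or 2 (0.0535 and 0.0689). Mesenchyme markers as a list were lower in IND on the same days: of 6 genes, 3 were called lower on day 6 and 4 on day 8, with sums of 4537 to 6457 CPM in day 6 CTRL and 2371 to 3248 CPM in day 6 IND. Their part in the differences of FOXF2 was not tested, and in bulk samples fewer cells of a type and less RNA per cell cannot be told apart.

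FOXH1 fell through differentiation and was lower still in IND on 2 days. On day 8 it lay at 8.92, 12.4 and 12.1 CPM in CTRL and 8.22, 7.06 and 5.72 CPM in IND (-0.66 ± 0.18, edgeR adjusted p = 0.0321). On day 14 it lay at 1.39, 1.72 and 1.75 CPM against 0.640, 0.584 and 0.755 CPM (-1.28 ± 0.32, edgeR adjusted p = 0.0254). The groups did not overlap, though on day 8 the nearest CTRL and IND libraries were close. The day 8 call was lost without CTRL replicate 2 or 3 (adjusted p = 0.0934 and 0.127) or IND replicate 2 (0.0925), and the day 14 call whichever single library was left out (between 0.0509 without CTRL replicate 1 and 0.0826 without IND replicate 2). The libraries keep no strand and 27.7% of the 100-base windows of FOXH1 are shared with KIFC2 on the other strand, so reads of the pair cannot be told apart there. KIFC2 itself was not called in IND against CTRL on any day.

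FOXD3 was called lower on day 14, at 13.0, 22.2 and 12.1 CPM in CTRL and 9.02, 8.20 and 8.06 CPM in IND (-0.90 ± 0.21, edgeR adjusted p = 0.0207). The IND libraries were close to each other and below all CTRL libraries. On day 6, at its peak, it lay at 28.1, 17.6 and 27.4 CPM against 11.7, 9.73 and 16.8 CPM, also without overlap, but was not called (-0.92 ± 0.23, edgeR adjusted p = 0.0599). The antisense gene FOXD3-AS1 overlaps it on the other strand. The libraries keep no strand, but 0% of the 100-base windows of FOXD3 also occur in another gene's transcripts. FOXD3-AS1 was called lower on day 6 (8.37 to 3.81 CPM, -1.11 ± 0.23, edgeR adjusted p = 0.0108) and on day 8 (-0.78 ± 0.20, edgeR adjusted p = 0.0232). The day 14 call of FOXD3 was lost without IND replicate 1, 2 or 3 (0.0559, 0.0854 and 0.124). The 5 markers of neural crest and glia, in whose precursors FOXD3 is known to act, moved the same way: 4 were called lower on day 6, 4 on day 8, none on day 10, 3 on day 12 and 3 on day 14, none higher, with sums of 163 to 236 CPM in day 6 CTRL against 84.2 to 114 CPM in day 6 IND, and of 592 to 986 CPM in day 14 CTRL against 332 to 403 CPM in day 14 IND. Their part in the result was not tested.

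FOXD1, a gene of the kidney stroma, was higher in IND on day 12, at 1.54, 1.89 and 2.23 CPM in CTRL and 4.56, 4.97 and 4.59 CPM in IND (1.32 ± 0.21, edgeR adjusted p = 0.0102). The libraries of each group lay close together and far from the other group, and among the fits with 1 library left out the call was lost without CTRL replicate 2 (adjusted p = 0.0532). FOXN2 was lower in IND on day 8, at 21.0, 17.2 and 18.1 CPM in CTRL and 14.5, 14.0 and 13.5 CPM in IND (-0.41 ± 0.11, edgeR adjusted p = 0.0318). Its groups did not overlap, and its call was lost without CTRL replicate 1 or 3 (0.132 and 0.0869) or IND replicate 1 or 2 (0.0528 and 0.0903). On day 10, with IND replicate 2 left out, FOXD1 was called higher (1.07 ± 0.29, edgeR adjusted p = 0.0269). FOXN2 was called lower in the same fit (-0.62 ± 0.12, edgeR adjusted p = 0.00308).

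The endoderm factor FOXA2 and the cilium factor FOXJ1 were called higher in IND on day 12. FOXA2 (chromosome 20, 22581005 to 22585455, minus strand) lay at 6.66, 16.6 and 17.0 CPM in CTRL and 48.2, 87.5 and 32.1 CPM in IND (2.06 ± 0.43, edgeR adjusted p = 0.0279). FOXJ1, which switches on the genes of motile cilia, lay at 10.3, 17.3 and 15.9 CPM against 34.3, 38.8 and 25.7 CPM (1.19 ± 0.22, edgeR adjusted p = 0.0190). The IND libraries lay above CTRL for both genes but spread widely, by more than the CTRL libraries. Both calls were fragile: that of FOXA2 was lost without CTRL replicate 1, 2 or 3 (adjusted p = 0.0695, 0.0733 and 0.0724), without IND replicate 1 or 2 (0.188 and 0.0627) and without the filter on low counts (0.218), and that of FOXJ1 without CTRL replicate 1 or 3 (0.0537 and 0.0664) or IND replicate 1 or 2 (0.0737 and 0.0597).

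High values that were not called were found for FOXA2 on day 8 and for related members on days 8 to 12. On day 8 FOXA2 lay at 11.0, 26.6 and 11.1 CPM in CTRL and 103, 79.0 and 36.1 CPM in IND (2.18 ± 0.60, edgeR adjusted p = 0.0882), and FOXA1 at 19.9, 51.6 and 17.2 CPM against 145, 122 and 55.0 CPM (1.87 ± 0.63, edgeR adjusted p = 0.137). All IND libraries were above all CTRL libraries for both genes, with a CTRL replicate 2 that was well above the other two and an IND replicate 3 well below. Without day 8 CTRL replicate 2, FOXA1 (2.55 ± 0.47, edgeR adjusted p = 0.0290), FOXA2 (2.73 ± 0.50, edgeR adjusted p = 0.0285), FOXA3 (2.03 ± 0.19, edgeR adjusted p = 0.000126), FOXJ1 (1.94 ± 0.22, edgeR adjusted p = 0.00103) and FOXI3 (1.72 ± 0.45, edgeR adjusted p = 0.0364) were all called. That library held the highest day 8 CTRL value of each of these genes, so leaving it out widened their differences. Without day 8 CTRL replicate 3, FOXP2 alone was called of the 35 members tested. On day 12 FOXA1 lay at 9.19, 35.0 and 28.8 CPM in CTRL and 50.2, 98.2 and 60.5 CPM in IND, again without overlap (1.52 ± 0.44, edgeR adjusted p = 0.0913). FOXA3 stood at 1.39, 1.90 and 1.42 on days 8, 10 and 12 (edgeR adjusted p = 0.106, 0.0986 and 0.103), and FOXI3, a gene of pharyngeal and placodal ectoderm, at 1.41, 1.64 and 1.28 (edgeR adjusted p = 0.0510, 0.149 and 0.0758). FOXE1, the thyroid factor, stood at 4.51 ± 1.31 on day 12 (edgeR adjusted p = 0.0898), a value that came from 442 counts in IND replicate 2 (9.55 CPM) against 0.559 and 0.270 CPM in the other two IND libraries.

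The levels of FOXA1, FOXA2, FOXA3, FOXJ1 and FOXI3 were set beside the sum of 7 endoderm markers that are not forkhead genes. Of the 11 groups, the library with the highest endoderm sum was also the highest for FOXA2 in 10, for FOXA3 in 10, for FOXI3 in 10, for FOXA1 in 8 and for FOXJ1 in 8. The same count was 7 for FOXE1, 6 for FOXD1, 4 for FOXC2, 3 for FOXP1, 1 for FOXP2 and 0 for FOXO1. The library with the lowest sum was also the lowest for FOXA2 in 9 groups, FOXA3 in 8, FOXA1 and FOXJ1 in 7 and FOXI3 in 5. By this lowest library the count was 6 for FOXE1 and FOXD1, 5 for FOXP2 and FOXC2, 3 for FOXP1 and 0 for FOXO1. On day 4 the sum rested mostly on CDX2, with a mean of 85.5 CPM. The endoderm sum ran from 57.9 to 147 CPM in day 8 CTRL and from 178 to 392 CPM in day 8 IND, from 41.8 to 107 against 156 to 251 CPM on day 10, from 29.8 to 84.8 against 159 to 257 CPM on day 12, and from 41.2 to 42.9 against 34.7 to 86.7 CPM on day 14. Of the list, HHEX was called higher on day 8 (1.95), AFP (2.61) and CDX2 (1.39) on day 12 and AFP (1.15) on day 14, and none on days 6 and 10, while CER1 was at no more than 0.149 CPM after day 4. The part of these markers in the differences of the FOXA genes, FOXD1, FOXE1, FOXJ1 and FOXI3 was not tested.

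**Figure D5:**
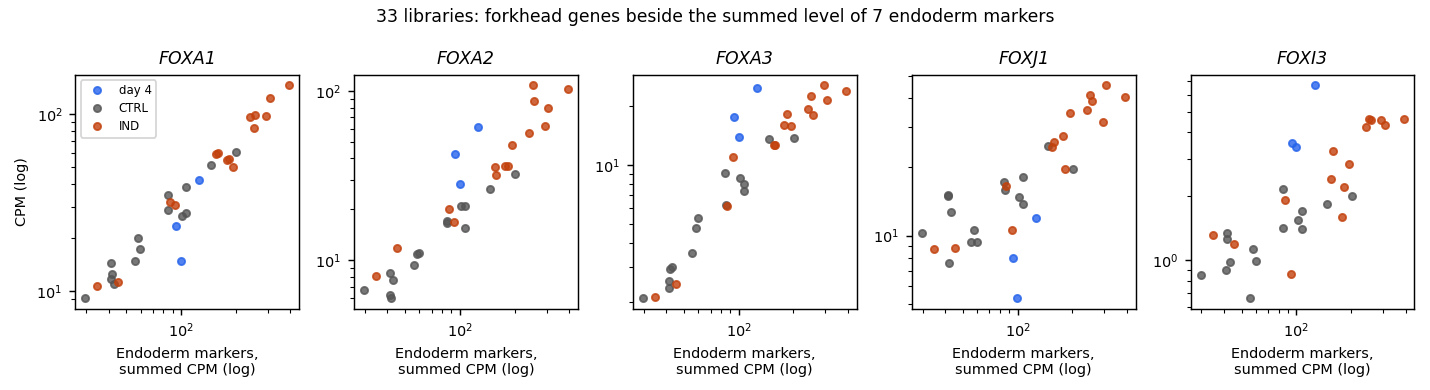
Level of FOXA1, FOXA2, FOXA3, FOXJ1 and FOXI3 in CPM (log axis) against the summed CPM of the 7 endoderm markers (log axis), 1 point for each of the 33 libraries. The library with the highest marker sum of its group is also the highest for FOXA2, FOXA3 and FOXI3 in 10 of 11 groups and for FOXA1 and FOXJ1 in 8. The library with the lowest sum is also the lowest for FOXA2 in 9, FOXA3 in 8, FOXA1 and FOXJ1 in 7 and FOXI3 in 5.

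Other cell type markers moved in IND as well and stand beside the members known from those lineages. Of 8 neuron markers 5 were called lower on day 8, 3 on day 10, 6 on day 12 and 6 on day 14 and none higher, with sums of 423 to 744 CPM in day 14 CTRL and 296 to 367 CPM in day 14 IND. Of the members known from neurons, FOXP2 was higher on 3 of these 4 days and FOXO6 was lower on 3 of them. The part of the neuron markers in these results was not tested. Of 5 endothelium markers 3 were called higher on day 8, 2 on day 10 and 2 on day 12, of 6 mesenchyme markers 2 lower on day 10, 4 on day 12 and none on day 14, and of 5 markers of pluripotent cells (3 or 4 tested) none on any day. Of the 7 coelomic epithelium and mesothelium genes, 3 were called lower and 1 (MSLN) higher on day 6, and 5, 3, 4 and 5 were called lower on days 8 to 14. Of the 6 markers of early supporting gonadal cells, 1 was lower on day 6, 4 were higher on day 8, 1 was higher on day 10, and 2 were higher and 1 lower on both day 12 and day 14. Of the 6 markers of paraxial mesoderm and muscle, only 3 were tested on days 6, 8, 10 and 14 and 4 on day 12. Among those tested PAX3 alone was called, lower on days 8, 12 and 14.

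Genes known from the pathways of FOXM1, the FOXO proteins and FOXJ1 were counted as lists without forkhead genes. FOXM1 was called on no day in IND with all libraries kept. Of 16 mitotic targets NEK2 and SKP2 were lower on day 8 (-0.46 and -0.41, edgeR adjusted p = 0.00521 and 0.00214) and NEK2 on day 14 (-0.40, edgeR adjusted p = 0.00955). The median over these targets was -0.03, -0.19, -0.34, -0.08 and -0.10 on the 5 days, against medians over all genes of 0.00, 0.00, -0.01, 0.02 and 0.00, and over the CTRL course 10 of the 16 were lower on day 14 than on day 4 (median -0.43). Of 16 FOXO targets, of which 14 or 15 were tested on a given day, GADD45A was lower on day 6 (-0.48), SESN1 and KLF2 were higher on day 8 (0.30 and 0.90), and PIK3IP1 was lower on day 12 (-0.64). On day 14 TXNIP was higher (0.55) while IRS2, GADD45A and PIK3IP1 were lower (-0.49, -0.47 and -0.48). Over the CTRL course 11 FOXO targets rose and 2 fell by day 14 (median 0.67, against -0.0016 over all genes). Of all genes tested in that comparison, 24.6% were called higher and 22.9% lower. FOXO3, FOXO4 and FOXO6 were also higher then, and a link between their RNA level and these targets was not tested. Of 19 genes of motile cilia and their regulators, 16 to 18 were tested. On day 8 DNAH5 (1.05), PIFO (0.91), RFX2 (0.71), TPPP3 (0.51) and CCDC40 (0.47) were higher and RFX3 (-0.32) lower. None was called on the other days, day 12 with its call of FOXJ1 included. Their median was 0.23, 0.55, 0.73, 0.44 and -0.09 on the 5 days.

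Whether the difference between IND and CTRL itself changed over the days was tested as the interaction of day and induction over the 30 CTRL and IND libraries. None of the 38 members tested was called by edgeR (2.38% of all genes were), the lowest adjusted p being 0.0803 for FOXF2, and 4 members had an unadjusted p under 0.05, as did 13.8% of all genes. DESeq2 called 1 member, FOXF2 (adjusted p = 0.0138), and limma on log2(FPKM + 1) called 0. Without day 10 IND replicate 2, edgeR called FOXO6 (adjusted p = 0.00887) and FOXF2 (0.0469). A member called on one day and not on another is therefore not shown to respond differently on those days.

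A further 22 members were tested in IND and called on no day with all libraries kept: FOXA1, FOXA3, FOXB1, FOXC1, FOXD2, FOXE1, FOXE3, FOXF1, FOXI2, FOXI3, FOXJ2, FOXJ3, FOXK1, FOXK2, FOXL1, FOXM1, FOXN3, FOXN4, FOXO4, FOXP3, FOXQ1 and FOXS1. They included the abundant FOXK1 and FOXK2, which are found in nearly all cells, and the cluster genes FOXC1, FOXF1, FOXL1 and FOXQ1. Without day 10 IND replicate 2, FOXI3 (1.45 ± 0.36, edgeR adjusted p = 0.0191) was called higher on day 10, and FOXE3 (-1.95 ± 0.42, edgeR adjusted p = 0.00559), FOXF1 (-0.66 ± 0.09, edgeR adjusted p = 0.000167) and FOXJ2 (-0.30 ± 0.08, edgeR adjusted p = 0.0233) lower. Without day 8 CTRL replicate 2, FOXQ1 was called higher on day 8 (1.52 ± 0.41, edgeR adjusted p = 0.0337), beside FOXA1, FOXA3 and FOXI3 given above. Without day 8 IND replicate 3, FOXE1 (3.39 ± 0.56, edgeR adjusted p = 0.00119), FOXB1 (1.13 ± 0.34, edgeR adjusted p = 0.0431) and FOXI3 (1.76 ± 0.28, edgeR adjusted p = 0.000893) were called higher and FOXM1 (-0.20 ± 0.06, edgeR adjusted p = 0.0394) lower. The remaining 11 members had too few counts for a test on any day. They were FOXB2, FOXD4, FOXD4L1, FOXD4L3, FOXD4L4, FOXD4L5, FOXD4L6, FOXI1, FOXN1, FOXR1 and FOXR2.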

How the data were processed

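Poly-A RNA of 33 libraries was sequenced without strand information. Per the labels and the study's methods, the authors had reads trimmed with fastp 0.23.2, mapped to GRCh38 with HISAT2 2.0.5 and counted with featureCounts 1.5.0-p3, and deposited fragment counts per gene without normalization. They also deposited FPKM values, which were used here for levels between genes and as an alternative. The gene models equal GENCODE release 29.

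Counts were tested with edgeR 4.0.16 in R 4.3.3 (filterByExpr, TMM, robust quasi-likelihood fit), 3 against 3 libraries as in the study, with Benjamini-Hochberg adjustment over all genes tested and a threshold of 0.05. CPM are scaled over all libraries by TMM. Alternatives were DESeq2 1.42.0, RLE scaling, other filters, limma 3.58.1 on log2(FPKM + 1) and log2(FPKM + 0.1), a replicate block, 1 fit over 33 libraries, and leaving out each library; the interaction without day 10 IND replicate 2 was chosen after seeing the data. Fits without 1 library have their new calls named by gene where the count of members moved most. That choice too was made after seeing the data. No 2 replicates agreed within sampling noise (chi-square per gene at least 7.82 over 33 pairs).

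The result of 1 further gene that matches the rule is not reported here. The members, gene lists and marker lists were chosen with earlier results of these data known. Values in every library are given for called members that reached a group mean of 1 CPM, the rest by group mean, range or count.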

Additional observations from a re-analysis of the deposited data

Results flagged for a closer look

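FOXP3 was the member whose IND libraries lay wholly above the CTRL libraries on some days and wholly below on another. On day 6 the IND libraries held 0.455, 0.424 and 0.499 CPM and the CTRL libraries 0.272, 0.0798 and 0.168 CPM (log2 fold change 1.43). On day 12 they held 0.425, 0.411 and 0.506 CPM against 0.339, 0.286 and 0.279 CPM (0.55). On day 8 the order was the opposite, with 0.257, 0.329 and 0.407 CPM in IND against 0.510, 0.457 and 0.508 CPM in CTRL (-0.55). None of these differences was called, and the difference between days did not pass the interaction test (edgeR adjusted p = 0.439). FOXP3 had a mean of only 14.3 counts a library, and CCDC22, which overlaps it on the other strand, had 1188. However, 0% of the 100-base windows of FOXP3 also occur in another gene's transcripts.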

How the results depend on the processing

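Of 389 values of called IND differences under an alternative, 163 lost their call, and of 1474 values of called CTRL differences from day 4, 149 did; none of either reversed direction. The number of members called in IND against CTRL moved more. On day 6 it was 4, but 1 in 1 fit over all 33 libraries and 0 with limma on log2(FPKM + 0.1), log2(FPKM + 1) or log2(FPKM + 1) without a filter. On day 8 it was 8, but 16 with DESeq2, 13 without the filter on low counts, 13 with the replicate block, and 3, 2 and 0 with the 3 limma settings. On day 10 it was 0, as with the replicate block and each limma setting, but 9 in the fit over 33 libraries and 8 with DESeq2. On day 12 it was 8, but 3, 2 and 0 with limma, and on day 14 it was 6, but 2 in the fit over 33 libraries and 2, 2 and 0 with limma. CTRL against day 4 on day 6 gave 15, but 9, 9 and 7 with limma. The interaction called 0 members, but 1 with DESeq2 and 5 without the filter on low counts. The share of all genes called in each of these settings is not given, so the members' shifts cannot be set against it. That share moved too, being 6.52% without day 8 CTRL replicate 3 and 23.6% without day 8 IND replicate 3. The cause of these shifts was not tested.

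Leaving out each library gave 1 to 3 calls on day 6, 1 to 15 on day 8, 0 to 13 on day 10, 1 to 10 on day 12 and 3 to 6 on day 14 in IND, 9 to 17, 15 to 19, 18 to 23, 18 to 23 and 18 to 24 in the CTRL course, and 0 to 2 in the interaction. Replicate numbers did not pair the libraries: over 15 pairs of same-numbered IND and CTRL libraries the correlation of their deviations ran from -0.284 to 0.222, with 5 over 0.1, so the replicate block was kept as an alternative only. Depth limits members under about 0.130 CPM, for which 3 counts or fewer were expected in the shallowest library.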
